A study of Mus musculus with 2 samples.

Results

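Mir126a, the mouse gene of the endothelial microRNA miR-126, was examined in small RNA sequencing of the embryonic face. It is 1 of 1973 miRNA genes counted, and was chosen by name: gene identifiers were matched to GENCODE symbols and the single row for Mir126a (ENSMUSG00000065540.1) was kept. The tissue was the facial prominence of B6NCrl mouse embryos at 14.5 days, the mesenchymal and epithelial tissue that forms the face and jaws, and no strain, age or treatment other than this was compared. There were 2 biological replicates, each 1 library, and the labels describe each as the face of a single pup from a different collection day while giving the sex as pooled, so whether a replicate holds 1 embryo or several is not settled. P-values that compare the replicates therefore compare 2 libraries, not conditions. Gene-strand counts over all miRNA genes were 6602050 in replicate 2 and 2719153 in replicate 1, and levels are given as CPM, counts scaled to these totals.

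A miRNA gene is transcribed as part of a longer RNA, from which a hairpin is cut and then trimmed by DICER to a short mature strand. Mature miRNAs lower the output of messenger RNAs that carry a match to their seed, the bases 2 to 8 from the 5′ end. Mir126a lies inside Egfl7, which encodes a secreted factor of endothelial cells, and both are known to be made from one transcript. In mouse and zebrafish, loss of miR-126 is known to weaken vessel integrity, and its known targets Spred1 and Pik3r2 are brakes on signalling from the vascular growth factor VEGF. Blood progenitors and platelets are also known to contain miR-126.

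On assembly mm10 the Mir126a hairpin spans chr2:26591357-26591429 on the plus strand, in the plus-strand gene Egfl7 (ENSMUSG00000026921.18, chr2:26580014-26593120). It begins 11343 bases after the start of Egfl7. GENCODE M21 lists 19 Egfl7 transcripts, of which 8 hold the hairpin in an intron, 7 of them coding. In 1 further transcript, a retained-intron form, the hairpin is exonic, and 10 transcripts do not span it. In the transcripts with 10 exons the hairpin lies in intron 7, which is 600 bases long, 293 bases after the upstream exon and 234 bases before the downstream one. The hairpin also lies in an intron of the overlapping plus-strand locus Gm20532.

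**Figure D1:**
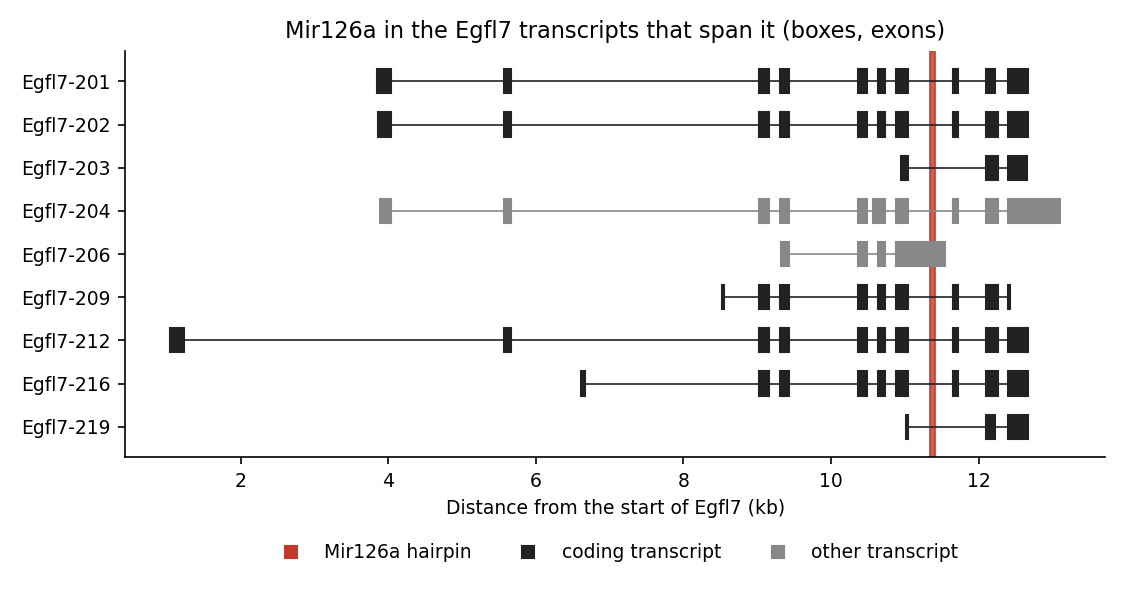
Position of the Mir126a hairpin (red band) in the 9 Egfl7 transcripts that span it, as distance from the start of Egfl7 in kilobases. Boxes are exons and lines introns, with coding transcripts in black and others in grey. The hairpin falls in an intron of every transcript drawn except the retained-intron form.

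The opposite strand carries a second annotated miRNA gene, Mir126b, at chr2:26591363-26591420. The sequences below, from RefSeq on build GRCm38.p6, are shown because strand decides which of the 2 genes a read belongs to. In the hairpins the capitals mark the listed mature strands, miR-126a-3p in the first and miR-126b-5p and miR-126b-3p in the second.
Mir126a hairpin: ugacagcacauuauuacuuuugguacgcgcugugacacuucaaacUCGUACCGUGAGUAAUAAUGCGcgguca
Mir126b hairpin: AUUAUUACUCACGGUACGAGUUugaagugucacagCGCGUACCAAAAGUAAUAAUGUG
In the mature strands the capitals mark the seed.
miR-126a-3p: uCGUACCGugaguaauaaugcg
miR-126b-5p: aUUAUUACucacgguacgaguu
miR-126b-3p: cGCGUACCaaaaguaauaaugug

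All 58 bases of the Mir126b hairpin are the reverse complement of the Mir126a hairpin. The 22-base miR-126a-3p and miR-126b-5p overlap over 19 bases on opposite strands, and their seeds differ. No other of the 1679 mature miRNAs in the RefSeq table has the seed of miR-126a-3p. That seed holds 2 CG pairs, as do or exceed the seeds of 19 of the 1679 (1.13%), while 87.0% have none. Folded with ViennaRNA, the Mir126a hairpin reached -31.2 kcal/mol with 54 of its 73 bases paired, and the Mir126b hairpin -19.3 kcal/mol with 42 of 58 bases paired. Per base this is -0.43 kcal/mol for Mir126a and -0.33 kcal/mol for Mir126b, beside a median of -0.41 kcal/mol over 1005 hairpins.

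The counted reads can be placed on Mir126a without a competing copy among known hairpins. Of the 1005 RefSeq hairpins none besides Mir126a holds any 16-base stretch of it in the same sense, and in the reverse complement Mir126b is the single match. The files give 1 count per gene, so reads of the 2 arms of the hairpin, miR-126a-5p and miR-126a-3p, are summed. Reads with several genome positions are in no gene's count. They made up 28.5% of the replicate 2 library and 29.8% of the replicate 1 library.

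Mir126a was among the most abundant miRNA genes of the face by the reads counted here. It had 357598 gene-strand reads in replicate 2 and 113317 in replicate 1. In replicate 2 it took 5.42% of the miRNA counts, 1 read in 18.5, with a 95% Wilson interval of 5.40 to 5.43. In replicate 1 it took 4.17%, 1 read in 24.0, with an interval of 4.14 to 4.19. On the CPM scale its level was 54165 in replicate 2 and 41674 in replicate 1, with a mean of 47919 ± 8833 CPM (SD, n = 2), a coefficient of variation of 18.4%. The intervals of the shares do not overlap, so the libraries differed by more than counting error. Counting unmapped and multiply placed reads too, Mir126a made up 2.67% of the replicate 2 library and 2.02% of the replicate 1 library. Its mean was 298 times the median of 161 CPM over the 372 genes with a mean of at least 10 counts. Adapter ligation favours some miRNAs over others, so levels of different genes are not molar amounts.

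By mean level Mir126a ranked 4 of the 1973 counted genes, with rank 3 in replicate 2 and rank 5 in replicate 1. This order leaves out reads with several genome positions, so a miRNA with several gene copies can stand too low in it. Genes without a row, such as Mir378a, are not ranked. Directly above it, Mir335, an intronic miRNA of the imprinted gene Mest, had 46646 CPM in replicate 2 and 56881 CPM in replicate 1. Directly below it, Mirlet7g of the let-7 family had 37906 CPM in replicate 2 and 43892 CPM in replicate 1. The ranges of both genes over the 2 libraries overlap that of Mir126a, so the order of the 3 is not set beyond their spread. On this CPM scale no other gene's range overlaps it. Mir99a stood higher, with 71776 CPM in replicate 2 and 63132 CPM in replicate 1, and Mirlet7i was the highest gene, with 82998 CPM in replicate 2 and 73051 CPM in replicate 1. Mir140, a cartilage miRNA in Wwp2, stood lower at 40087 ± 1018 CPM, with its higher value, 40807 CPM, just under the lower value of Mir126a. Under TMM scaling, explained below (factors 0.957 in replicate 2 and 1.04 in replicate 1), the ranges of Mir140 and Mir126a overlap as well. The order of Mir140 and Mir126a beyond their spread thus depends on the scaling. Mir322, a member of the miR-15/16 seed family, followed at 34808 ± 7081 CPM.

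**Figure D2:**
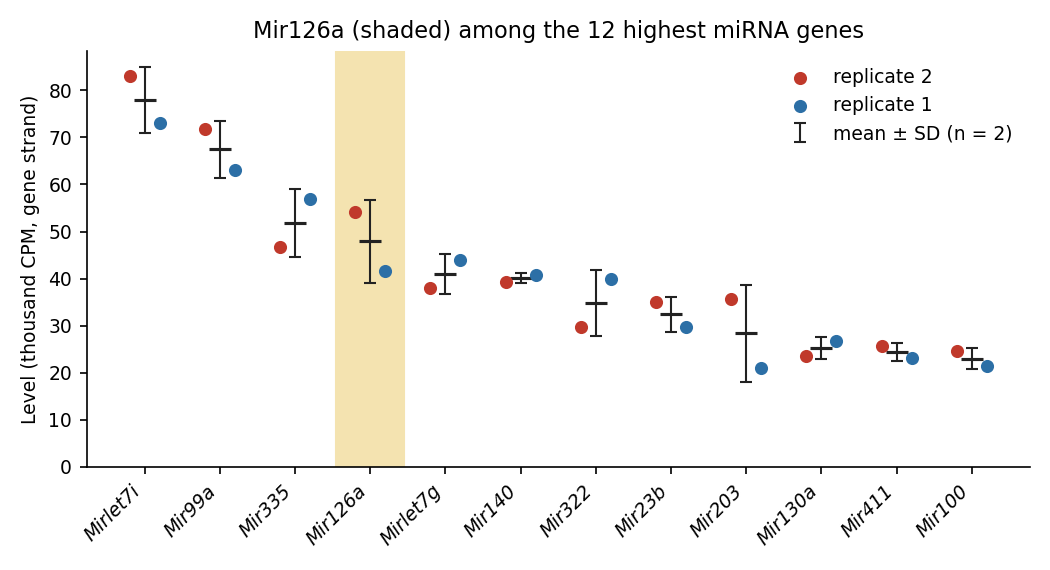
Level of the 12 highest miRNA genes in CPM of gene-strand miRNA counts (axis in units of 1000 CPM). Points are the libraries, horizontal marks the means and bars the SD (n = 2). Mir126a, shaded, reached 54165 CPM in replicate 2 and 41674 CPM in replicate 1, and its range meets those of Mir335 and Mirlet7g.

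The genes most like Mir126a over the 2 libraries were those of near level. Likeness was the Euclidean distance of log2(CPM + 1) over both libraries, among 371 other genes with a mean of at least 10 counts. Mir140 was nearest at 0.46, followed by Mir335 at 0.50, Mirlet7g at 0.52, Mir99a at 0.72 and Mir23b at 0.80. With 2 libraries this measure says how close the levels are and little about shared variation.

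Among miRNA genes in introns of protein-coding genes on the same strand, Mir126a was second to Mir335 by mean level. There were 688 such genes, 150 of them with a mean of at least 10 counts and a median of 90.7 CPM among those. Mirlet7g in Wdr82, Mir140 in Wwp2 and Mir23b in 2010111I01Rik came next, Mir23b at 32381 ± 3777 CPM. Mir126a stood above Mir335 in replicate 2, and below both Mir335 and Mirlet7g in replicate 1. Mir126a made up 13.98% of all reads of intronic miRNA genes in replicate 2 and 10.5% in replicate 1.

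Mir126a was higher in replicate 2 than in replicate 1. With TMM scaling, which sets the bulk of genes level between libraries, its log2 ratio of replicate 2 over replicate 1 was 0.50 (counting SE 0.0049, 95% exact interval 0.49 to 0.51). The exact two-sided binomial test with Benjamini-Hochberg adjustment gave a p of at most 1e-300, the smallest value written. The test is sensitive at such counts: it called 194 of 372 tested genes (52.2%), 102 of them (27.4%) higher and 92 (24.7%) lower in replicate 2. A call is therefore common, and the size says more. With Mir126a included, 74 of the 372 genes (19.9%) had a log2 ratio at least as far from 0, as did 13 of the 102 genes that averaged 1000 CPM or more. The ratio was at least as high in 36 of the 372 tested genes, Mir126a included. Scaled by total counts the log2 ratio of Mir126a was 0.38, and that scaling moves the median of all tested genes to -0.14, against -0.02 with TMM. Total counts also turn the balance of calls, to 64 higher and 133 lower.

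**Figure D3:**
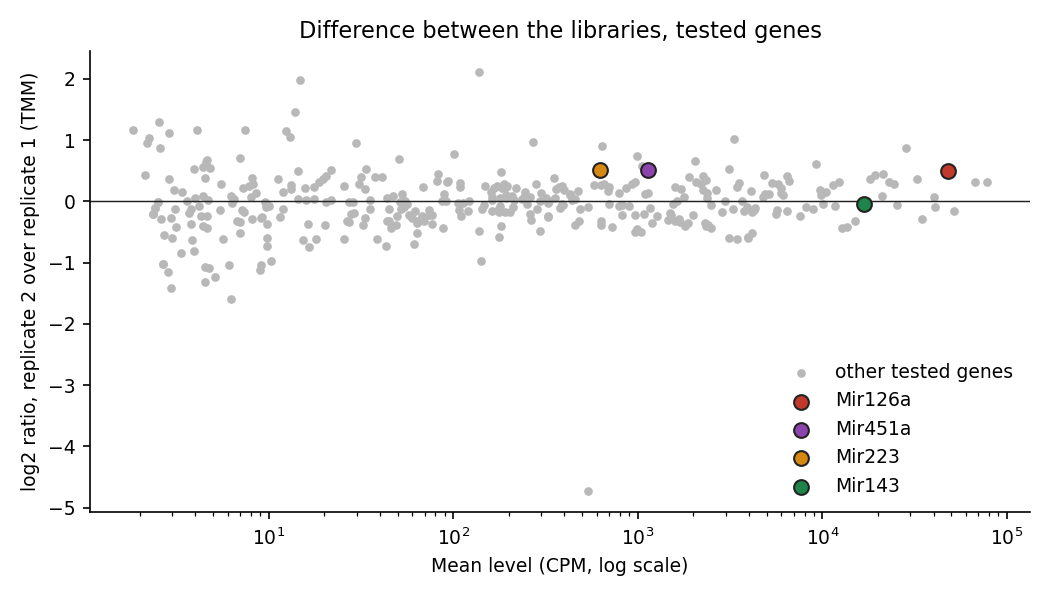
Log2 ratio of replicate 2 over replicate 1 (TMM) against mean level in CPM (log axis) for the 372 tested genes. Mir126a lies at 0.50, near Mir451a and Mir223 at 0.51 each, and Mir143 lies at -0.04.

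The endothelial label rests on Mir126a itself, since Mir126b, the second gene of the endothelial list, has no row. Marker genes of neighbouring compartments were therefore set beside it. Mir451a, needed for red cell maturation, had 1288 CPM in replicate 2 and 986 CPM in replicate 1. Mir223, a gene of myeloid cells, had 710 CPM in replicate 2 and 543 CPM in replicate 1. Mir143, a gene of smooth muscle and pericytes of the vessel wall, had 15873 CPM in replicate 2 and 17742 CPM in replicate 1. Mir451a and Mir223 were higher in replicate 2. Mir143 had a log2 ratio of -0.04 with TMM, -0.16 with total counts and 0.02 with DESeq2 size factors, called lower in the first 2 cases and higher with DESeq2 size factors.

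Ratios between genes within a library need no scaling. There were 42.1 reads of Mir126a for each read of Mir451a in replicate 2 and 42.3 in replicate 1, a difference of -0.01 on the log2 scale (95% counting interval -0.07 to 0.06, Fisher's exact test adjusted over 11 pairs, p = 0.857). For Mir223 there were 76.3 reads of Mir126a per read in replicate 2 and 76.8 in replicate 1, a log2 difference of -0.01 (interval -0.09 to 0.08, Fisher's exact test adjusted p = 0.857). Neither ratio differed detectably between the libraries, within those intervals. The pairs were chosen after the values were seen, when both genes were known to have log2 ratios near that of Mir126a. These 2 tests therefore restate that nearness and are no separate support. Mir142, taken up below, is not among the 11 pairs. For Mir143 there were 3.41 reads of Mir126a per read in replicate 2 and 2.35 in replicate 1, a log2 difference of 0.54 (interval 0.52 to 0.56, adjusted p at most 1e-300 by Fisher's exact test). The other 8 genes, which are the neighbours in level and the highest genes of the angiogenesis list, had log2 differences of 0.14 (Mir23b) to 0.80 (Mir322), all past the same test.

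A log2 ratio within 0.05 of that of Mir126a was found for 9 of the 371 other tested genes (2.43%). Besides Mir451a and Mir223 these were Mir96, Mir7b, Gm23935, Mir34b, Mir8112, Mir3070a and Mir802. They were named after their values were seen. In whole tissue, a change in the number of cells of a type and a change in the RNA of each cell cannot be told apart.

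The whole marker lists were less uniform than their highest genes with a row. All 3 erythroid genes with a row were tested: Mir451a and Mir144 (0.32) were higher in replicate 2, and Mir486 (-0.01) did not pass. With total counts Mir144 did not pass either. Mir486b, the other listed erythroid gene, has no row and is in no erythroid sum given here. At Mir486, 15.1% of reads in replicate 2 and 14.7% in replicate 1 lay on the opposite strand, outside its count. Of 3 tested leukocyte genes Mir223 was higher, and Mir155 (0.23) and Mir150 (0.25) did not pass, while with DESeq2 size factors 2 of the 3 were called higher. The leukocyte gene Mir142, known from all blood cell lineages, has no row, but the opposite strand of the Mir142b row, where Mir142 lies, held 5469 reads in replicate 2 and 2256 in replicate 1. These equal 828 CPM in replicate 2 and 830 CPM in replicate 1, above Mir223, with a log2 ratio of 0.12 with TMM and 0.00 with total counts. There were 65.4 reads of Mir126a per such read in replicate 2 and 50.2 in replicate 1, a log2 difference of 0.38 (95% counting interval 0.31 to 0.45). Mir142 thus did not keep the ratio to Mir126a that Mir223 and Mir451a kept within counting error. The list sums were 1406 CPM in replicate 2 and 1093 CPM in replicate 1 for the erythroid genes, and 807 CPM in replicate 2 and 633 CPM in replicate 1 for the leukocyte genes with a row. The vessel wall sum was 16278 CPM in replicate 2 and 18130 CPM in replicate 1. Of its 2 genes Mir143 was called lower and Mir145a (0.19) higher with TMM, but with total counts Mir145a did not pass, and with DESeq2 size factors both were called higher. Mir126a stood above each of these sums, by 3.33-fold in replicate 2 and 2.30-fold in replicate 1 for the vessel wall genes, 38.5-fold and 38.1-fold for the erythroid genes, and 67.1-fold and 65.8-fold for the leukocyte genes with a row. With the Mir142 reads added, the leukocyte sum was 1636 CPM in replicate 2 and 1463 CPM in replicate 1, and Mir126a stood above it by 33.1-fold in replicate 2 and 28.5-fold in replicate 1. The part of blood cells in the level of Mir126a was not tested.

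**Figure D4:**
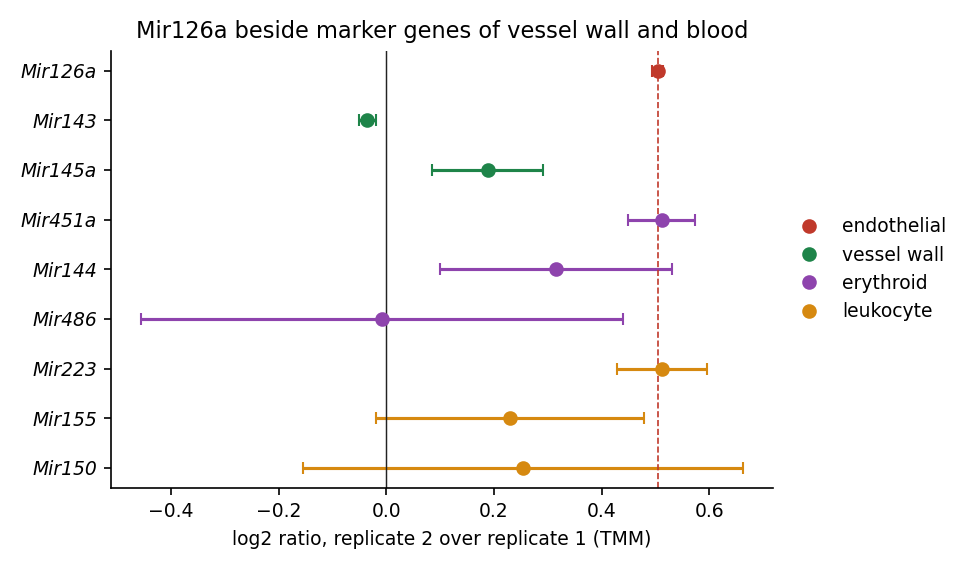
Log2 ratio of replicate 2 over replicate 1 (TMM) for Mir126a and the marker genes tested through their own row, of vessel wall, red cells and leukocytes, with 95% counting intervals as bars and a dashed line at the value of Mir126a. The intervals of Mir451a and Mir223 take in the Mir126a value of 0.50, as do the wide ones of Mir144 and Mir150, and those of Mir143, Mir145a, Mir486 and Mir155 do not.

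Mir126a was also read against miRNA genes with a known role in endothelial cells or vessel growth. Of 31 listed genes 28 had a row, and all 28 were tested. With TMM 9 were higher in replicate 2, 11 lower and 8 not called, with Mir126a itself among the 9. Over all 372 tested genes 102 (27.4%) were higher and 92 (24.7%) lower. The median log2 ratio of the list was -0.06, beside -0.02 over all tested genes. With total counts 6 genes of the list were higher, 14 lower and 8 not called, beside 64 higher and 133 lower of all 372. Mir126a was the highest gene of the list, 21.2% of its sum in replicate 2 and 16.4% in replicate 1. With the 3 members without a row added from the opposite strand of the rows they overlap, it was 20.8% in replicate 2 and 16.1% in replicate 1. These shares leave out reads with several genome positions. List members with several gene copies can therefore stand too low, and the share of Mir126a too high. Mir322 (log2 ratio -0.29), Mir23b (0.36), known to act with Mir27b in vessel sprouting, and Mir130a (-0.06), known to repress antiangiogenic homeobox genes, were the next highest. The ratio of Mir130a was 0.00 with DESeq2 size factors.

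Reads on the opposite strand, where Mir126b lies, were rare. There were 39 in replicate 2 and 14 in replicate 1. In replicate 2 this was 0.0109% of all reads at the hairpin, with a 95% Wilson interval of 0.00798 to 0.0149. In replicate 1 it was 0.0124%, with an interval of 0.00736 to 0.0207, giving a mean of 0.0116% ± 0.0010 (SD, n = 2). The shares did not differ detectably between the libraries (two-sided Fisher's exact test, p = 0.748). For each opposite-strand read there were 9169 gene-strand reads in replicate 2 and 8094 in replicate 1. Scaled to the gene-strand totals, the opposite reads equal 5.91 CPM in replicate 2 and 5.15 CPM in replicate 1, above the limit that a count of 0 allows (3 counts, 0.454 and 1.10 CPM). As a gene of its own this would rank 311 in replicate 2 and 324 in replicate 1.

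Other highly counted genes show the background on the opposite strand. Of 140 genes with at least 1000 gene-strand reads in each library, 119 (85%) had no opposite-strand read in either library, and 7 had a higher mean share than Mir126a. Mirlet7i and Mir99a, with more reads than Mir126a, had none, and Mir335 had 4 in replicate 2 and 1 in replicate 1. Pooled over the 134 genes with no annotated miRNA gene on the other strand, the share was 0.00153% in replicate 2 and 0.00136% in replicate 1. The highest mean shares were 0.432% at Mir374b and 0.311% at Mir337, which both overlap an opposite-strand miRNA gene, and 0.192% at Mir708, which overlaps none. Mir203, singled out after its values were seen, overlaps none either, yet had 28 opposite-strand reads in replicate 2 and 8 in replicate 1, shares of 0.0119% and 0.0139%. A share of the size found at Mir126a therefore also occurred without an annotated partner, and whether its opposite-strand reads are mature Mir126b strands was not tested, because the files give no read positions.

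**Figure D5:**
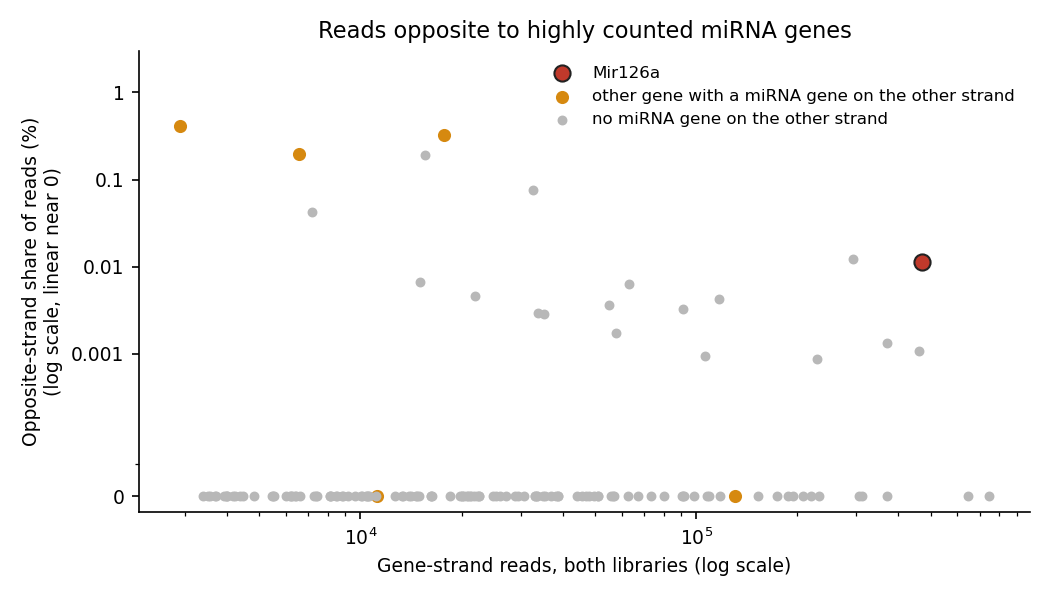
Share of reads on the opposite strand (%, log axis that is linear near 0) against gene-strand reads of both libraries together (log axis) for the 140 genes with at least 1000 gene-strand reads in each library. Mir126a lies near 0.01%, and 119 of the 140 genes lie at 0.

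Pairs of miRNA genes on opposite strands were each counted through a single row. GENCODE M21 has 64 miRNA genes that overlap one on the other strand, of which 32 have a row here, and in no case does the partner also have one. Among the 20 of these with at least 100 reads in each library on either strand, 9 had under 1% of their reads on the opposite strand in both libraries, 10 had over 99%, and Mir3074-1, opposite Mir24-1, had 60.1% in replicate 2 and 65.6% in replicate 1. Mir126a and Mir30e, with 83564 gene-strand reads in replicate 2, 47025 in replicate 1 and no opposite read, were the highest of the first kind. Gm25301, opposite Mir378a, Gm24321, opposite Mir409, and Gm25252, opposite Mir376a, were the highest of the second kind, with all their reads on the strand of the partner. The row kept for this locus was thus that of the strand holding nearly all reads.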

How the data were processed

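The authors deposited raw read counts per miRNA gene, 1 table per library, from reads placed on assembly mm10. The metadata text beside the counts names GENCODE M4. Aligner, counter and trimming: not given in the sources used here. The 3 count columns have no header, and their layout (both strands, gene strand, opposite strand) was read from the row names and from the last 2 summing to the first in every row. The 4 summary rows, 50.7% of the reads in replicate 2 and 51.6% in replicate 1 in the gene-strand column, stayed out of library sizes and tests. Totals of miRNA reads per library set the precision, and intervals and floors cover counting error only, since no molecular identifiers are described.

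Names and positions came from GENCODE M21 (1894 of 1973 identifiers matched), sequences from RefSeq, and folding energies from ViennaRNA 2.7.2. An intron of a coding gene means a place spanned by a coding transcript and touching no exon of one. With 1 library a side no dispersion can be fitted, so the genes that averaged 10 or more counts were each compared by an exact two-sided binomial test given TMM library sizes (edgeR 4.0.16), adjusted by Benjamini-Hochberg over all tested genes at 0.05, with a prior of 0.5 counts in log2 ratios. The test was checked on simulated counts. Alternatives were total counts, DESeq2 1.42.0 size factors, other filters, priors and denominators, both strands together, equal depth and each library alone.

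The gene and the lists were chosen with earlier results of these data known. Named genes are the 3 neighbours on each side in level, the 5 nearest by distance and the highest of each list (4 of the angiogenesis list). For the lists only members with a row were ranked. Also named are the 5 highest in coding introns, the 5 highest with an opposite-strand partner and the 3 highest opposite-strand shares. The 11 pair ratios were added after the values were seen.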

Additional observations from a re-analysis of the deposited data

Results flagged for a closer look

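The opposite-strand column, which lies outside the gene-strand measurement, held 39 reads at Mir126a in replicate 2 and 14 in replicate 1. Both exceed the 3 counts that a count of 0 allows. That limit does not take in the background on the opposite strand of a gene with many reads. There are no control samples in the series to set them against. Of the 140 genes with at least 1000 gene-strand reads in each library, 7 had a higher mean opposite-strand share and 119 had no such read. Mir203, which overlaps no annotated miRNA gene, had 28 opposite-strand reads in replicate 2 and 8 in replicate 1.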

How the results depend on the processing

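Of 36 alternative values none reversed, and 3 moved beyond the spread. Several of them could not move or reverse, so the tally is no measure of stability. A count filter leaves the log2 ratio of Mir126a unchanged. For the erythroid list no member was added from the opposite strand, although Mir486b has no row, so that alternative could not differ. A level or a rank has no direction to reverse. Scaled to all reads of a library, in place of miRNA gene reads, the mean level of Mir126a was 23449 CPM, as a larger denominator must give. The log2 ratio of Mir126a to the leukocyte sum, 6.05, was 4.94 with both strands counted together and 4.94 with the Mir142 reads added from the opposite strand of Mir142b, alternatives chosen after seeing the data. With each replicate alone the level ranged from 41674 to 54165 CPM, the rank from 3 to 5, the opposite-strand share from 0.0109% to 0.0124%, and the log2 ratio of Mir126a to the vessel wall sum from 1.20 to 1.73 to the erythroid sum from 5.25 to 5.27 and to the leukocyte sum from 6.04 to 6.07. With 2 libraries a single one always lies within 1 SD of the mean, so these ranges show the spread and not stability. The log2 ratio between replicates lay between 0.38 (total counts) and 0.56 (DESeq2 size factors) and passed the test in every setting tried. The number of genes called ranged from 174 to 204, but the number tested ranged from 261 to 717, so the share called was not stable. With no count filter 182 of 717 tested genes were called, and with a mean of at least 100 counts 182 of 261. No paired analysis was possible because there is a single group.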
